A study of Rattus norvegicus with 9 samples.

Results

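The serotonin receptor genes Htr1a, Htr1b, Htr1f, Htr2a, Htr2c, Htr3a, Htr4, Htr5a and Htr7 were examined in the prefrontal cortex of rats. They were chosen by name as members of the receptor family, though with earlier results of these data known. They are 9 of the 37209 genes in the count table. Of the 9, 8 passed the filter on low counts and were tested, and Htr7 did not pass it. RNA from the frontal cortex of 9 male Wistar rats aged 14 weeks had been depleted of ribosomal RNA and sequenced, with 3 rats in each of 3 groups. Control rats (A1, A2 and A6) stayed undisturbed with their mothers until weaning. MS rats (B3, B4 and B6) underwent neonatal maternal separation, 4 h daily from postnatal day (PND) 1 to PND 21. MS+EA rats (C3, C10 and C16) underwent the same separation and then received electroacupuncture (EA), in which current is passed through needles at the points GV20 and GV29, every other day from PND 61 to PND 81. Per the study's methods, Control and MS rats received the anaesthesia alone, so every rat had been anaesthetised repeatedly as an adult. No group with needles but no current was among the rats sequenced, and no group received EA without separation. How many litters the rats came from is not given in the sources used here.

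Serotonin reaches the prefrontal cortex through fibres of the raphe nuclei, and RNA of cortical tissue reports on the receptors that cells of the cortex make, since receptors on the arriving fibres are made in distant cell bodies. Htr1 and Htr5 receptors couple to Gi/o proteins and dampen adenylyl cyclase, Htr2 receptors couple to Gq/11 and activate phospholipase C, and Htr4 and Htr7 receptors couple to Gs and stimulate adenylyl cyclase. Htr3a is a subunit of an ion channel. In cortex, Htr2a is best known from pyramidal cells, Htr1a from pyramidal cells and interneurons, and Htr3a from a class of interneurons that lack parvalbumin and somatostatin.

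None of the 8 tested receptor genes passed the test in any comparison of groups, where 0.0238% (MS against Control), 0.0178% (MS+EA against MS) and 1.37% (MS+EA against Control) of all tested genes passed it. The changes that came closest were in Htr2a, which was lower in MS+EA than in MS rats, in Htr2c, which was higher in MS+EA than in MS rats, and in Htr5a, which was lower in MS+EA than in Control rats. A gene was called at a Benjamini-Hochberg adjusted p under 0.05 in edgeR's quasi-likelihood F test, adjusted over 16837 genes, together with a fold change above 1.5. Levels are given in CPM, counts scaled by the TMM-normalized library size, with SD and n = 3 per group. CPM does not correct for gene length, so levels were compared between rats and not between receptors. In tissue RNA, fewer cells that make a receptor and less receptor RNA per cell cannot be told apart.

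The libraries held 12479905 to 19007907 counts, and each MS+EA library (12479905 to 14913736) was smaller than each Control or MS library. The 9 receptor genes together received 1333 to 2283 reads per rat. All 8 fixed markers of cortical excitatory neurons were detected and tested, and their summed level was 4464 to 5246 CPM in Control, 4605 to 4694 CPM in MS and 3960 to 4111 CPM in MS+EA rats. One rat stood apart over the receptors: MS+EA rat C3 had the lowest level of the 9 rats in 4 of the 8 tested genes, Htr1a, Htr1b, Htr2a and Htr5a. The 8 genes summed to 92.3 CPM in C3 and to 116.2 to 131.2 CPM in the other 8 rats. C3 also had the highest summed level of the 6 oligodendrocyte markers, 4171 CPM against 1828 to 3238 CPM in the others, and the part of this in its receptor levels was not tested. For Htr1a, Htr1b, Htr2a, Htr2c, Htr3a and Htr5a, values without C3 are therefore given beside the main ones.

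Upstream sequences are shown for Htr2c and Htr5a, which are among the 3 receptors with the changes closest to the threshold and have an entry among the RefSeq promoters of the GRCr8 build. Of the 9 genes, 5 had an entry (Htr1b, Htr1f, Htr2c, Htr5a and Htr7). The Htr2c sequence is chrX:115452940-115453189 on the plus strand and the Htr5a sequence is chr4:8188486-8188735 on the minus strand. Each is the 250 bases before the annotated start, written 5′ to 3′ along the gene, and capitals mark a match to a searched motif.
Htr2c upstream: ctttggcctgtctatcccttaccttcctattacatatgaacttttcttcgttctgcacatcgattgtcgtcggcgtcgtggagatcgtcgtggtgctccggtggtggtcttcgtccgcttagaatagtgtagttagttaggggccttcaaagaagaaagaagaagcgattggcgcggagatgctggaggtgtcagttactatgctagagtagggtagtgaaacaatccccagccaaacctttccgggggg
Htr5a upstream: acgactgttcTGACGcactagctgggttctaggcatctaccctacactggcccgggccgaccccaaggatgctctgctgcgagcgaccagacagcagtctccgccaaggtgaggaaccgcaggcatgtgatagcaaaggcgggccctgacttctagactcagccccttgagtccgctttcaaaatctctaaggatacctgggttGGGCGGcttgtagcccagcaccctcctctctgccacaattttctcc
The motifs searched on both strands were the GC box GGGCGG, the TATA box TATAAA, the cyclic AMP response element TGACGTCA, its shorter form TGACG, which every full element also contains, and the E box CACGTG. They were found in 30.5%, 12.9%, 1.59%, 18.2% and 5.59% of 33469 upstream sequences of this length. The Htr2c sequence held none of these motifs, and 50.4% of its bases were G or C. The Htr5a sequence held a GC box and the shorter form of the cyclic AMP response element, and 58.4% of its bases were G or C, beside a median of 51.2% over all upstream sequences. A match describes the letters in this window only, and the count data do not measure binding to it.

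Among the Gi/o-coupled receptors, Htr1a, the inhibitory receptor that also serves as autoreceptor on raphe neurons, was counted at 6.15, 6.40 and 5.22 CPM in Control rats A1, A2 and A6, at 6.59 (B3), 5.003 (B4) and 6.25 CPM (B6) in MS rats and at 3.26 (C3), 5.09 (C10) and 5.96 CPM (C16) in MS+EA rats. C3 was the lowest and the 3 groups overlapped. The mean was 5.93 ± 0.622 CPM in Control, 5.95 ± 0.836 CPM in MS and 4.77 ± 1.38 CPM in MS+EA rats. The log2 fold change of Htr1a was 0.01 ± 0.22 (SE) between MS and Control (adjusted p = 0.995) and -0.32 ± 0.22 between MS+EA and MS rats (adjusted p = 0.578). Without C3 the second value was -0.10.

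Htr1b, which sits on axon terminals and limits transmitter release, stood at 14.9, 17.5 and 17.4 CPM in Control, at 15.8, 14.8 and 17.7 CPM in MS and at 11.4, 15.9 and 15.1 CPM in MS+EA rats, in the same order of rats. The groups overlapped, with C3 again the lowest. The MS and Control means differed by a log2 fold change of -0.04, with a 95% interval of the fold change from 0.785 to 1.20. Between MS+EA and Control rats it was -0.23 with an adjusted p of 0.369 by edgeR, and -0.09 without C3.

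Htr1f, a further Gi/o-coupled receptor and a target of migraine drugs, lay between 3.19 CPM (B4) and 4.94 CPM (A2) with a median of 4.28 CPM over the 9 rats. Its group means were 4.34 ± 0.575 CPM in Control, 3.98 ± 0.768 CPM in MS and 4.26 ± 0.592 CPM in MS+EA rats. These means were closer to each other than the SD within each group, and the lowest adjusted p of the 3 comparisons was 0.885 in edgeR.

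Htr5a, the remaining Gi/o-coupled member, was measured at 11.6, 13.8 and 10.8 CPM in Control, at 10.50, 11.1 and 11.5 CPM in MS and at 7.84, 10.45 and 8.82 CPM in MS+EA rats. Each MS+EA rat was below each Control rat, while Control and MS rats overlapped. Each was also below each MS rat, but C10 (10.45 CPM, 156 reads) and B3 (10.50 CPM, 180 reads) were nearly equal. The means were 12.1 ± 1.54 CPM, 11.02 ± 0.496 CPM and 9.04 ± 1.32 CPM. The MS+EA mean was 0.751 times the Control mean, with a 95% interval of 0.601 to 0.937, an unadjusted p of 0.0154 and an adjusted p of 0.118 in edgeR. Against MS rats the fold change was 0.821 with an interval of 0.657 to 1.03 and an adjusted p of 0.451, and without C3 the log2 fold change went from -0.28 to -0.18. The unadjusted p for MS+EA against Control became 0.0676 without C3 and 0.0765 without Control rat A2. The summed level of the excitatory neuron markers was also lowest in the 3 MS+EA rats, but Camk2a and Slc17a7 make up most of this sum. Of the 8 markers, 5 were lower and 3 higher in MS+EA than in Control rats, with a median log2 fold change of -0.01. Slc17a7, the vesicular glutamate transporter, went from 1592 ± 53.3 CPM in Control to 1289 ± 57.6 CPM in MS+EA rats, a log2 fold change of -0.30 with an adjusted p of 0.0207. Camk2a, a kinase of excitatory synapses, had a log2 fold change of -0.36 (adjusted p = 0.0387). The part of the excitatory neurons in the Htr5a values was not tested.

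**Figure D1:**
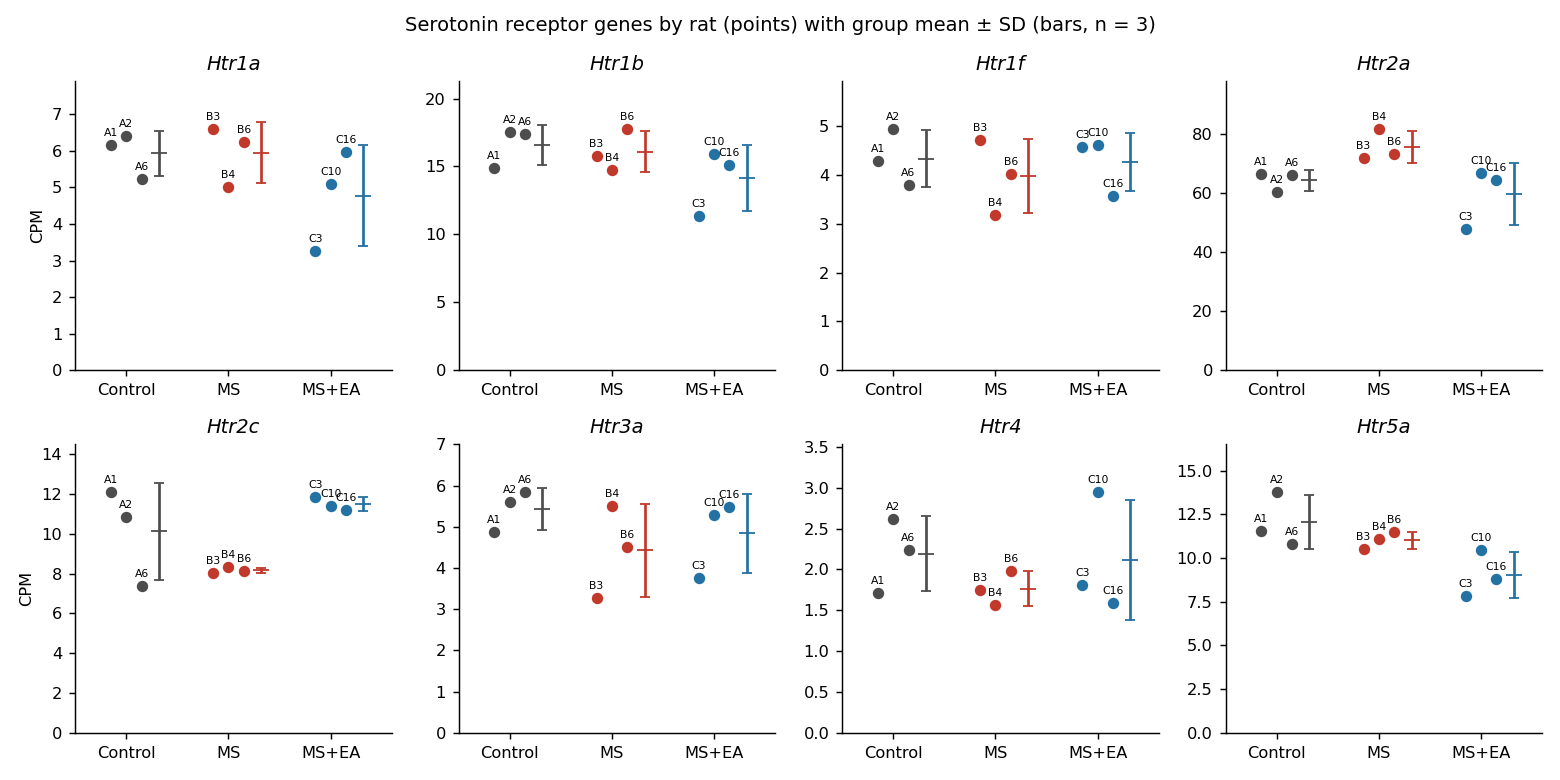
Level of each of the 8 tested receptor genes in CPM (vertical axis, from 0) in each rat (points, named) of the Control, MS and MS+EA groups, with the group mean ± SD beside the points. Htr2a of the 3 MS rats (72.0 to 81.7 CPM) lies above all other rats, Htr2c of the MS rats (8.05 to 8.32 CPM) lies below the MS+EA rats (11.2 to 11.9 CPM), and C3 is the lowest point for Htr1a, Htr1b, Htr2a and Htr5a.

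Among the Gq/11-coupled receptors, Htr2a, the target of classical hallucinogens and of many antipsychotic drugs, was counted at 1244, 989 and 1066 reads in Control, at 1234, 1307 and 1220 reads in MS and at 689, 1000 and 811 reads in MS+EA rats. These counts were 66.6, 60.3 and 66.3 CPM in Control, 72.0, 81.7 and 73.4 CPM in MS and 47.8, 67.0 and 64.5 CPM in MS+EA rats. Each MS rat was above each rat of the other groups, and Control and MS+EA rats overlapped. The means were 64.4 ± 3.54 CPM in Control, 75.7 ± 5.29 CPM in MS and 59.8 ± 10.4 CPM in MS+EA rats. The MS mean was 1.18 times the Control mean with an interval of 0.994 to 1.39, an unadjusted p of 0.0578 and an adjusted p of 0.485 in edgeR. The MS+EA mean was 0.789 times the MS mean with an interval of 0.667 to 0.935, an unadjusted p of 0.00993 and an adjusted p of 0.276. MS+EA and Control rats had a log2 fold change of -0.11 (adjusted p = 0.614), and of 0.04 without C3.

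Rats C3 and B4 bore on the size of the Htr2a values. Without C3 the log2 fold change between MS+EA and MS rats was -0.20 in place of -0.34, with an unadjusted p of 0.0414 and an adjusted p of 0.384 in edgeR. The same omission of C3 left the log2 fold change of MS against Control at 0.23 and brought its unadjusted p to 0.0103, with an adjusted p of 0.266. MS rat B4, the highest in Htr2a, also had the highest sums of 5 meningeal markers (343.4 CPM, against 170.3 CPM in C16, 108.8 CPM in C3, 79.7 CPM in B6 and 32.4 to 44.5 CPM in the other 5 rats) and of 8 thalamic and hypothalamic markers (110.6 CPM, against 42.2 to 54.1 CPM in all other rats). Without B4 the log2 fold change of Htr2a was 0.17 between MS and Control and -0.28 between MS+EA and MS rats, the latter with an unadjusted p of 0.0466 and an adjusted p of 0.595 in edgeR. Markers of endothelium and pericytes were higher in 6 of 6 between MS and Control (median log2 fold change 0.28) and lower in 6 of 6 between MS+EA and MS (median -0.21). Upper layer markers were lower in 6 of 6 (median -0.11) and excitatory markers in 5 of 8 (median -0.10) between MS+EA and MS rats, with Camk2a, Slc17a7 and Nrgn at an unadjusted p under 0.05 and 0 called. Between MS and Control, upper layer markers were higher in 4 of 6 (median 0.05) and excitatory markers in 5 of 8 (median 0.02). Layer 5 markers were lower in 3 of 6 between MS and Control (median -0.01) and in 4 of 6 between MS+EA and MS (median -0.03). The part of the cells and tissue these markers stand for in the Htr2a values was not tested. Counts of Htr2a varied within groups by 11.8 times the variance of counting error, against 1.59 to 3.59 times for the other 7 tested receptors. This ratio grows with the number of reads, and Htr2a received 9560 reads over all rats, against 289 to 2238 for the others. It therefore does not rank the receptors by how much their levels varied.

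Htr2c, known for its edited transcripts and its role in appetite and anxiety, was counted at 226, 178 and 119 reads in Control, at 138, 133 and 135 reads in MS and at 171, 170 and 141 reads in MS+EA rats. In CPM these were 12.1, 10.9 and 7.40 in Control, 8.05, 8.32 and 8.12 in MS and 11.9, 11.4 and 11.2 in MS+EA rats. The MS rats lay close together and below each MS+EA rat, whereas the Control rats spread over both ranges, with A6 below all MS rats. The means were 10.1 ± 2.43 CPM in Control, 8.16 ± 0.141 CPM in MS and 11.5 ± 0.338 CPM in MS+EA rats. The MS+EA mean was 1.41 times the MS mean with an interval of 1.09 to 1.81, an unadjusted p of 0.0123 and an adjusted p of 0.293 in edgeR. The log2 fold change of MS against Control was -0.31 (unadjusted p = 0.0867, adjusted p = 0.529), without Control rat A1 it was -0.16 (unadjusted p = 0.369) and without Control rat A6 it was -0.49 (unadjusted p = 0.00417, adjusted p = 0.328). MS+EA against Control had a log2 fold change of 0.18, which became 0.33 without A1 and 0.01 without A6. Leaving out C3 changed the log2 fold change between MS+EA and MS from 0.49 to 0.48.

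Htr2c is abundant in choroid plexus, so the 12 markers fixed for that tissue were read beside it. Their sum was 5.13 to 6.52 CPM in Control, 6.29 to 25.0 CPM in MS and 5.22 to 10.6 CPM in MS+EA rats, with Otx2 at 0 reads in every rat and Folr1 at 0 to 7 reads. MS rat B4 had the highest sum, 25.0 CPM, and its Htr2c level was 8.32 CPM, against 8.05 and 8.12 CPM in the other MS rats. Markers of layer 6 and 6b neurons and of oligodendrocytes had lower medians in MS rats, as did Htr2c. For the layer 6 and 6b markers the median log2 fold change was -0.35 between MS and Control (7 of 9 lower) and 0.46 between MS+EA and MS (8 of 9 higher), and the layer 6b gene Cplx3 was at 6.81 ± 1.07, 4.30 ± 0.376 and 9.16 ± 1.25 CPM in Control, MS and MS+EA rats. None of the 9 passed the test in these comparisons. For the 6 layer 5 markers the median was -0.01 between MS and Control (3 higher, 3 lower). Between MS+EA and MS it was -0.03 (2 higher, 4 lower). The 6 oligodendrocyte markers were all lower in MS than in Control rats (median -0.23) and all higher in MS+EA than in MS rats (median 0.44), and none was called. The 12 markers of striatal projection neurons, which also make Htr2c, summed to 309.6 to 337.0 CPM in Control, 332.9 to 368.4 CPM in MS and 337.6 to 391.0 CPM in MS+EA rats, with Isl1 at 0 reads in every rat. Of the 10 tested, 5 were higher and 5 lower between MS+EA and MS (median 0.02), and 4 were higher and 6 lower between MS and Control (median -0.08). The part of choroid plexus, layer 6, oligodendrocytes or striatal tissue in the Htr2c values was not tested.

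RefSeq's GRCr8 annotation places 5 microRNA genes (Mir3552, Mir764, Mir1912, Mir1298 and Mir448) inside Htr2c. Each of them received at most 8 reads in any rat.

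The ratio of Htr2a to Htr2c reads does not depend on library scaling, and it was taken up after the values of both genes had been seen, so it is a description without a test. It was 5.50 (A1), 5.56 (A2) and 8.96 (A6) in Control rats, 8.94 (B3), 9.83 (B4) and 9.04 (B6) in MS rats and 4.03 (C3), 5.88 (C10) and 5.75 (C16) in MS+EA rats. MS and MS+EA rats did not overlap, while Control rat A6 lay in the range of the MS rats and the other 2 Control rats lay with the MS+EA rats. Each MS rat was above each MS+EA rat in Htr2a and below each in Htr2c. The separation of these groups in the ratio follows from that and adds nothing to the values of the single genes. The mean ratio was 6.67 ± 1.98 in Control, 9.27 ± 0.486 in MS and 5.22 ± 1.03 in MS+EA rats. Htr2a supplied 49.4 to 55.7% of the reads on the 9 receptor genes in Control, 57.5 to 62.3% in MS and 51.7 to 55.5% in MS+EA rats.

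**Figure D2:**
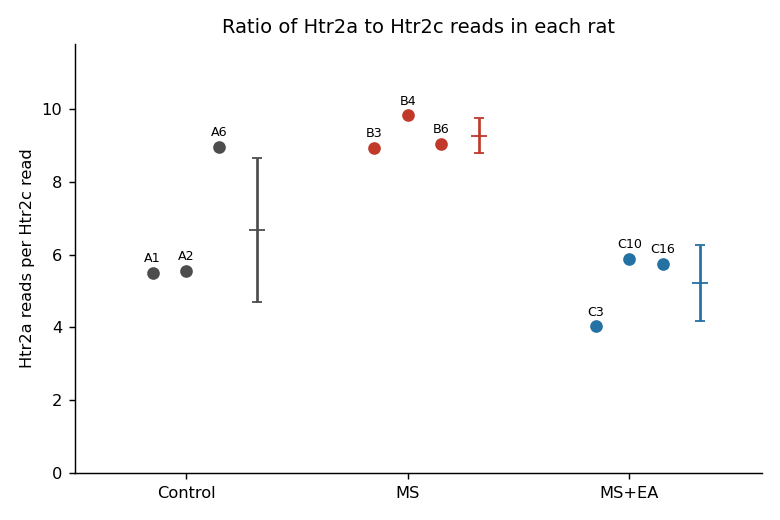
Reads on Htr2a divided by reads on Htr2c (vertical axis, no unit, from 0) in each rat (points, named), with the group mean ± SD. The 3 MS rats sit between 8.94 and 9.83, the 3 MS+EA rats between 4.03 and 5.88, and Control rat A6 at 8.96 is apart from the other 2 Control rats at 5.50 and 5.56.

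The ion channel subunit Htr3a was measured at 4.87, 5.61 and 5.84 CPM in Control, at 3.27, 5.50 and 4.51 CPM in MS and at 3.75, 5.29 and 5.48 CPM in MS+EA rats. The groups overlapped, and B3 and C3 were the lowest rats. The same rats had the lowest sums of the 12 markers of Htr3a-type interneurons. These were 794.3 CPM in B3 and 734.7 CPM in C3, against 893.6 to 978.7 CPM in the other 7. Cnr1 and Cck make up most of these sums. Of the 12 markers, Vip, Cck, Cnr1 and Tac3 were lowest in C3, but Calb2 and Prox1 were highest in C3. Reln, Ndnf, Adarb2 and Crh were lowest in B3. The part of these cells in the Htr3a level was not tested. The log2 fold change between MS and Control was -0.30 ± 0.23 (SE) with an adjusted p of 0.677 in edgeR, and it was -0.12 without B3 and -0.48 without B4. For MS+EA against MS it was 0.13 ± 0.23 with an adjusted p of 0.859, and 0.29 without C3.

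Among the Gs-coupled receptors, Htr4, a receptor with splice forms that differ in their tails, received only 20 to 44 reads per rat. It lay at 1.71, 2.62 and 2.24 CPM in Control, at 1.75, 1.56 and 1.98 CPM in MS and at 1.80, 2.95 and 1.59 CPM in MS+EA rats, with overlap of all groups. The interval of the fold change between MS and Control ran from 0.510 to 1.28 and that between MS+EA and MS from 0.752 to 1.92, so that a level lower by 1.5-fold in the former and higher by 1.5-fold in the latter was not excluded.

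Htr7, the other Gs-coupled member, received 1 read in each Control rat, 3 reads in MS rat B3, 2 reads in B4 and in B6, and 3, 2 and 0 reads in MS+EA rats C3, C10 and C16. All rats were at or under the detection floor of 3 counts, which corresponds to 0.160 to 0.238 CPM, and no fold change is given. The low count does not show that the gene is silent. Gnas, whose Gs protein is used in nearly every cell, was also listed at 0 to 3 reads per rat in the same table, and the interneuron peptide gene Npy at 2 to 13 reads. The cause of these low counts was not tested.

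Across the 8 tested members, 0 were called between MS and Control rats, where 0.0238% of all tested genes were called. Between MS+EA and MS rats 0 members were called beside 0.0178% of all genes, and between MS+EA and Control rats 0 beside 1.37%. At an unadjusted p under 0.05 in edgeR, the members numbered 0 of 8 between MS and Control (10.6% of all genes), 2 of 8 between MS+EA and MS (Htr2a and Htr2c, beside 12.4%) and 1 of 8 between MS+EA and Control (Htr5a, beside 22.5%). DESeq2's Wald test gave 0 calls and the same numbers of members at an unadjusted p under 0.05. The CPM ranges did not overlap for 1 of 8 members between MS and Control (Htr2a, beside 17.6% of all genes), for 3 of 8 between MS+EA and MS (Htr2a, Htr2c and Htr5a, beside 17.9%) and for 1 of 8 between MS+EA and Control (Htr5a, beside 25.9%). Each of these counts of members is at most 3 of 8 and was not tested against the share of all genes. Htr5a counts as separate between MS+EA and MS rats only by 10.45 CPM in C10 against 10.50 CPM in B3.

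The median log2 fold change of the 8 members was -0.13 between MS and Control, -0.04 between MS+EA and MS, and -0.14 between MS+EA and Control rats. Over all tested genes it was -0.001, 0.0006 and 0.006. The members were lower in 6, 4 and 7 of 8 cases. The comparisons share groups, so their values are set side by side and were not correlated. The 95% interval stayed inside a 1.5-fold change in either direction for 4 members between MS and Control (Htr1a, Htr1b, Htr2a and Htr5a), for 3 between MS+EA and MS (Htr1b, Htr1f and Htr2a) and for 4 between MS+EA and Control (Htr1b, Htr1f, Htr2a and Htr2c). For the other members an effect of 1.5-fold lies within the interval. The Htr2a interval between MS+EA and MS reaches down to a fold change of 0.667, at the edge of the 1.5-fold limit.

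**Figure D3:**
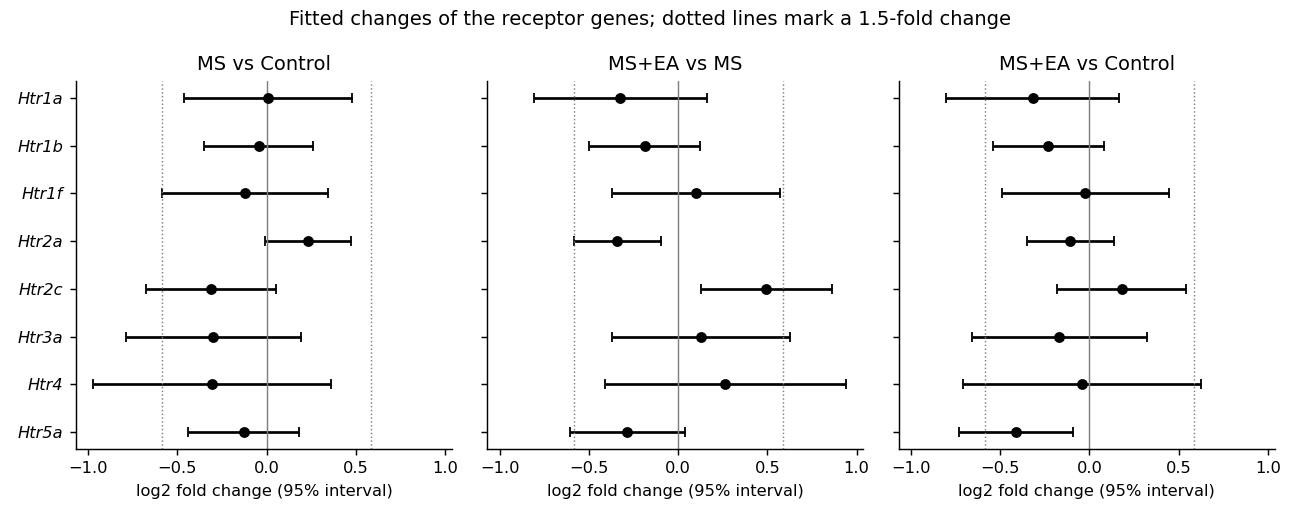
Fitted log2 fold change (horizontal axis, points) of the 8 tested receptor genes with 95% intervals (bars) in the 3 comparisons, from the edgeR model of all 9 rats; the solid line marks no change and the dotted lines a 1.5-fold change. The intervals leave out 0 for Htr2a and Htr2c between MS+EA and MS and for Htr5a between MS+EA and Control, and no gene passed the test after adjustment.

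**Figure D4:**
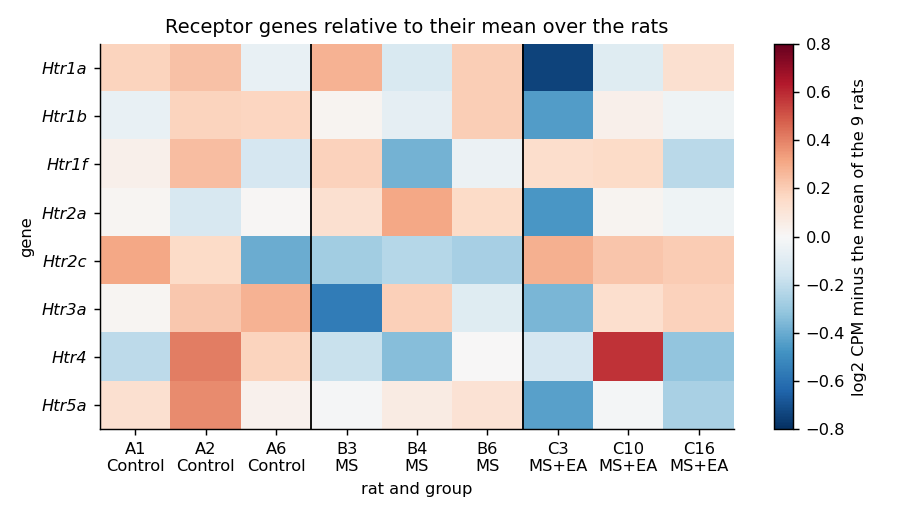
Level of the 8 tested receptor genes (rows) in each rat (columns, by group) as log2 CPM minus the mean of the 9 rats, from blue (lower) to red (higher). Htr2c is below its mean in A6 and the 3 MS rats and above it in A1, A2 and the 3 MS+EA rats. C3 has the lowest value of the plot, -0.74 for Htr1a.

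How the receptors varied together over the 9 rats was described by Pearson's r of log2(CPM + 0.1), without a test, since the rats share group and library depth. Of the 28 pairs, 20 were positive and 8 negative, with a median r of 0.20. The highest was Htr1a with Htr1b (r = 0.80, Spearman's rho = 0.60), and it was -0.06 once B4 and C3, the 2 rats farthest from the median of Htr1a, were left out. The lowest was Htr2a with Htr2c (r = -0.61, rho = -0.40), and it was -0.56 without B4 and C3, the rats farthest from the median of Htr2a.

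The genes with the pattern most like a receptor over the 9 rats were sought among all tested genes. For Htr2a they were Dclk3 (r = 0.94), Akr1b1 (r = 0.94) and Ufc1 (r = 0.93), and for Htr2c they were Wfikkn1 (r = 0.95), Prmt1 (r = 0.91) and Stam2 (r = 0.91). Eif3i-ps1 (r = 0.98), Ndrg4 (r = 0.96) and Zfp3 (r = 0.95) were nearest to Htr5a. For Htr1a these were Dynll2 (r = 0.96), Uxt (r = 0.96) and Nkiras1 (r = 0.95), and for Htr1b Tox, Tp53bp1 and Fdft1 (each r = 0.96). Htr1f was nearest to LOC100910079 (r = 0.94), Utp14a (r = 0.91) and LOC102552303 (r = 0.91). Htr3a was nearest to LOC365985 (r = 0.93), Tcfl5 (r = 0.91) and Doc2a (r = 0.90), and Htr4 to Zdhhc13 (r = 0.97), Pcdhb11 (r = 0.92) and Drc1 (r = 0.92). These are the highest values among all tested genes, taken over only 9 rats, and no receptor was among the nearest genes of another. Without the 2 rats farthest from the receptor's median, Akr1b1 had r = 0.61 with Htr2a and Tcfl5 had r = 0.58 with Htr3a, the lowest values, while LOC102552303 had r = 0.96 with Htr1f, the highest.

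Of the other 5 serotonin receptor genes, Htr1d received 27 to 61 reads and Htr6 received 38 to 97 reads per rat. Both were tested, and neither passed the test. Among the examined receptors, Htr4 received 20 to 44 and Htr1f 45 to 81 reads per rat. Htr5b and Htr2b received 20 and 4 reads over all rats, and Htr3b received 0.

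Genes that act before or behind the receptors were read from fixed lists, and 0 genes of any of these lists were called in any comparison. As a background for their counts, an unadjusted p under 0.05 was found for 10.6% of all tested genes between MS and Control, for 12.4% between MS+EA and MS and for 22.5% between MS+EA and Control, and 49.9% and 49.1% of all tested genes were lower in the latter 2 comparisons. Of 12 genes of serotonin supply and clearance, 8 were tested, and the serotonin transporter Slc6a4 was at 0 to 3 reads per rat. Slc29a4, a transporter that clears monoamines at low affinity, was at 8.71 ± 2.22 CPM in Control, 6.06 ± 1.26 CPM in MS and 5.10 ± 1.40 CPM in MS+EA rats. Its log2 fold change against Control was -0.78 in MS+EA rats (adjusted p = 0.0816 in edgeR) and -0.52 in MS rats (adjusted p = 0.462). Between MS+EA and MS rats it was -0.25 (adjusted p = 0.714). Maob, which degrades amines, had a log2 fold change of -0.18 and Qdpr, which renews the cofactor of serotonin synthesis, one of 0.50 between MS+EA and MS rats, with adjusted p of 0.320 and 0.334 in edgeR. Qdpr was at 82.7 (C3), 65.3 (C10) and 134.3 CPM (C16) in MS+EA rats. In MS rats it was at 73.0 (B3), 61.9 (B4) and 64.2 CPM (B6). Tph2, the enzyme that makes neuronal serotonin, was at 0.358 ± 0.248 CPM in Control and 0.946 ± 0.0645 CPM in MS rats (adjusted p = 0.457 in edgeR). In MS+EA rats it was at 0.70 ± 0.59 CPM. These levels rest on only 12, 3 and 4 reads in Control, 15, 16 and 16 in MS and 20, 6 and 4 in MS+EA rats.

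In the Gs arm behind Htr4, Htr6 and Htr7, 19 of 20 genes were tested. Creb1, a transcription factor activated by cyclic AMP signalling, was at 66.0 ± 3.08 CPM in Control, 89.7 ± 4.43 CPM in MS and 90.9 ± 5.13 CPM in MS+EA rats. Its log2 fold change against Control was 0.46 in MS+EA rats (adjusted p = 0.00795) and 0.44 in MS rats (adjusted p = 0.0578), below the 1.5-fold threshold in both. At an unadjusted p under 0.05 in edgeR, this arm had 2 genes higher and 4 lower of 19 between MS+EA and Control (22.5% of all genes), with the cyclases Adcy1 and Adcy8 and the kinase subunit Prkaca among the lower ones. MS+EA against MS rats gave 0 higher and 2 lower (Adcy1 and Prkar1b), and between MS and Control 2 higher (Creb1 and Prkacb) and 0 lower.

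In the Gi/o arm behind Htr1 and Htr5, all 16 genes were tested, and their values were lower in 14 of 16 between MS+EA and Control (5 lower and 1 higher at an unadjusted p under 0.05, beside 22.5% of all genes, with Gnai2, Rgs14 and Rgs19 among the lower ones). Gnb2, a G protein beta subunit, was at 140.3 ± 6.48 CPM in Control and 114.9 ± 3.80 CPM in MS+EA rats, a log2 fold change of -0.29 with an adjusted p of 0.0265 and under the 1.5-fold threshold. Between MS+EA and MS rats 13 of 16 were lower, 5 of them at an unadjusted p under 0.05, including Gnb1, Gnb2, Rgs4 and Kcnj6. Kcnj6, a subunit of a potassium channel that Gi/o signalling opens, had a log2 fold change of -0.22 (adjusted p = 0.300 in edgeR). Between MS and Control only Rgs14 had an unadjusted p under 0.05, with a log2 fold change of -0.26.

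In the Gq/11 arm behind Htr2a and Htr2c, all 14 genes were tested. Dgkz, a kinase that removes the second messenger diacylglycerol, was at 717.3 ± 84.3 CPM in Control and 554.3 ± 52.6 CPM in MS+EA rats, a log2 fold change of -0.37 with an adjusted p of 0.0393. Plcb1, a phospholipase C that Gq activates, had a log2 fold change of 0.32 between MS and Control (adjusted p = 0.394). At an unadjusted p under 0.05 there were 0 genes higher and 2 lower (Dgkz and Gna14) between MS+EA and MS rats, beside 12.4% of all genes.

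Of 15 receptor partners and desensitising proteins, 12 were lower between MS+EA and MS rats, 2 of them (Adrbk1 and Grk5, kinases that desensitise receptors) at an unadjusted p under 0.05, beside 12.4% of all genes. Arrb1, which uncouples receptors from G proteins, was at 15.7 ± 2.68 CPM in Control, 13.4 ± 1.31 CPM in MS and 10.8 ± 1.14 CPM in MS+EA rats. Its adjusted p between MS+EA and Control was 0.0592 in edgeR. Adrbk1, Adrbk2 and Grk6 were the other 3 partners with an unadjusted p under 0.05 in that comparison, all lower in MS+EA rats, and between MS and Control there were 0. Among 7 tested regulators of Htr1a transcription, the glucocorticoid receptor gene Nr3c1 was at 140.5 ± 11.2 CPM in Control, 175.3 ± 6.83 CPM in MS and 183.6 ± 5.92 CPM in MS+EA rats. Its log2 fold change was 0.39 between MS+EA and Control (adjusted p = 0.0130) and 0.32 between MS and Control (adjusted p = 0.129), again below 1.5-fold. Cc2d1b (higher in MS+EA than in Control), Deaf1 (lower in MS than in Control) and Hes5 (lower in MS+EA than in MS) also had an unadjusted p under 0.05, with adjusted p of 0.0617, 0.457 and 0.322 in edgeR. Rat C3 was also left out for several genes, an omission chosen for them after seeing the data. The adjusted p between MS+EA and Control was then 0.00920 for Creb1, 0.0320 for Gnb2, 0.0353 for Dgkz and 0.0174 for Nr3c1 in edgeR. By the same fit it was 0.0363 for Slc17a7, 0.0722 for Arrb1 and 0.1915 for Slc29a4. The log2 fold change of Slc29a4 was -0.60 without C3 in place of -0.78. Htr1a itself had overlapping levels in the 3 groups.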

How the data were processed

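RNA of the frontal cortex of 9 rats, 3 per group, had been sequenced by the authors after depletion of ribosomal RNA. Per the labels, reads were mapped to Rnor_6.0 with HISAT2 2.0.4, and the authors deposited whole-number counts per gene without normalization. The counting program, its strand setting and the treatment of reads with several locations are not given in the sources used here. Groups were taken from the labels, which give no batch.

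Counts were normalized by TMM in edgeR 4.0.16 (R 4.3.3), filtered by filterByExpr with a minimum count of 10, and fitted with a mean per group in a quasi-likelihood model of all 9 rats. Of 37209 genes, 16837 were tested, and p-values were adjusted over these. The common biological coefficient of variation was 12.7%. CPM of untested genes used the same library sizes. Standard errors were derived from the log2 fold change and the F statistic, and intervals are 95%. A count of 3 was taken as the detection floor, which covers counting error only. For 3 rats per group, 0.1 is the smallest p that exact two-sided permutation can reach. The procedure was tested on simulated counts. The alternatives were DESeq2 1.42.0, other scalings, filters and forms of the fit, and the omission of each rat. Tables and plots were made with Python 3.11.15, pandas 2.3.3, numpy 2.4.6, scipy 1.17.1 and matplotlib 3.10.9.

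The receptor genes, the pathway lists and the marker lists were chosen with earlier results of these data known. Named are all 9 receptors, the 3 tested genes nearest to each in log2(CPM + 0.1), and the pathway list genes with an unadjusted p under 0.05 (at most 4 per list and comparison), with the marker genes, Gnas, Npy, Slc6a4 and the microRNA genes inside Htr2c added after their counts were seen. Transcript lengths were not used here, so levels were not ordered between receptors. One result of the pathway lists is not reported here.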

Additional observations from a re-analysis of the deposited data

How the results depend on the processing

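The number of receptor genes called was 0 in each comparison under every alternative run. Over 24 member values and 16 alternatives each, 367 of 384 values kept their direction and 17 turned, in 9 of the 24. The largest value among those 9 was 0.27 on the log2 scale before any change of setting, and none of the 384 passed the test. The lowest adjusted p was 0.0911 (Htr5a, MS+EA against Control, without C10). The range of adjusted p over the alternatives was 0.127 to 0.595 for Htr2a and 0.197 to 0.568 for Htr2c between MS+EA and MS, and 0.0911 to 0.297 for Htr5a between MS+EA and Control. Between MS+EA and MS, both Htr2a and Htr2c had an unadjusted p under 0.05 in every alternative.

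The log2 fold change of Htr1a between MS and Control was -0.0019 with all genes of at least 1 count and -0.0097 with scaling by total counts, and that of Htr1f between MS+EA and Control was 0.0047 with scaling by total counts. With 1 rat left out, the log2 fold changes between MS and Control ranged from -0.077 to 0.11 for Htr1a, from -0.12 to 0.013 for Htr1b and from -0.27 to 0.013 for Htr1f. Between MS+EA and Control they ranged from -0.10 to 0.084 for Htr1f, from -0.20 to 0.035 for Htr2a and from -0.36 to 0.12 for Htr4. Between MS+EA and MS they ranged from -0.030 to 0.24 for Htr1f, from -0.050 to 0.32 for Htr3a and from -0.056 to 0.43 for Htr4. The cause was not tested. The log2 ratio of Htr2a to Htr2c, an alternative chosen after seeing the data, differed between MS+EA and MS by -0.94 to -0.67 with 1 rat left out.

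No paired analysis was possible because each rat belongs to 1 group only and any 2 groups have at most 1 number in common. The alternative with levels per gene length was not run. Counts of 20 to 44 reads per rat limit Htr4, and Htr7 could not be tested.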
